A study of Mus musculus with 16 samples.

Results

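The genes described here are 10 direct transcriptional targets of the tumour suppressor p53, namely Cdkn1a, Ccng1, Mdm2, Bbc3, Pmaip1, Bax, Fas, Phlda3, Trp53inp1 and Zmat3. They were taken by name, as all probes of the mouse array whose gene name was one of these symbols. This gave 13 of 55681 probes and 10 of 34779 distinct names, which include entries without a gene symbol. Cdkn1a had 3 probes, Trp53inp1 had 2 and the other 8 genes had 1 each. p53 is a transcription factor that is held at a low level by the ubiquitin ligase Mdm2 and accumulates after DNA damage, nucleolar stress and inhibition of transcription. Its targets stop the cell cycle, trigger apoptosis, or, in the case of Mdm2 itself, close a feedback loop on p53, and several of them are also switched on by other transcription factors.

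The arrays were hybridised with RNA of RAW 264.7 cells, a mouse macrophage-like line, kept in low-serum medium and given 1 of 4 treatments. Cells of the DMSO group had the vehicle alone for 120 min, and cells of the cordycepin group had 20 µM cordycepin, an adenosine analogue that lacks the 3′ hydroxyl group, in DMSO for 120 min. Cells of the LPS+DMSO and LPS+cordycepin groups had the same for 60 min and then 1 µg/ml lipopolysaccharide (LPS) in addition for 60 min. Each group had 4 replicates, which were collected on different days with all groups on each day, so the study holds 16 arrays. It is 1 cell line at 1 time point and 1 dose, and the arrays measured mRNA, not p53 protein. All 10 macrophage markers were well above background on every array, whereas none of 4 B cell, 4 fibroblast and 4 epithelial markers was, and of 4 T cell markers 2 were. The B cell marker Cd79a was well above background on 12 of the 16 arrays, and the other B cell, fibroblast and epithelial markers on at most 3. Between 37.1% and 51.2% of spots were well above background, with the lower shares on the slide that held replicates 1 and 2 and the higher ones on the slide that held replicates 3 and 4. Tnf, which marks the response to LPS, was 105-fold higher in LPS+DMSO than in DMSO, and the reference gene Gapdh differed by at most 0.08 on the log2 scale in these 4 comparisons.

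Values are log2 signals after each array was scaled to its own 75th percentile, and a change is a difference between group means of these values with its standard error (SE). A gene was said to rise or fall if its limma p, adjusted over the 15877 genes tested, was under 0.05. Of these 15877 entries 11653 had a gene symbol, and the shares of all genes include the others. All 10 genes were measured well above background on all 16 arrays by their brightest probe, so none was lost to the filter on dim probes. RNA was pooled from all cells of a well, so more expressing cells and more mRNA per cell cannot be told apart.

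Cdkn1a was called in all 4 comparisons, Mdm2 and Fas in both comparisons of LPS, and Ccng1 and Phlda3 in both comparisons of cordycepin, while Bax, Pmaip1 and Trp53inp1 were called in none. With LPS, 4 of the 10 genes rose in the absence of cordycepin (Cdkn1a, Mdm2, Bbc3 and Fas), beside 5.14% of all genes tested. None fell, beside 9.80% of all genes, although 3 were lower at an unadjusted p under 0.05 by limma, beside 17.7% of all genes. By the methods' t-test 0 were lower at an adjusted p under 0.05, a stricter threshold, where 966 of 15877 genes were lower. With cordycepin, 3 of 10 rose in unstimulated cells (Cdkn1a, Ccng1 and Phlda3), beside 8.23% of all genes, and 4 of 10 rose in LPS-stimulated cells (Cdkn1a, Ccng1, Phlda3 and Zmat3), beside 10.8%. None of the 10 fell with cordycepin in either setting, where 7.55% and 8.47% of all genes fell. The count of lower genes was also 0 by limma at an unadjusted p under 0.05, beside 12.8% and 12.7% of all genes. It was 0 as well by the methods' t-test at an adjusted p under 0.05, where 837 and 1118 of 15877 genes were lower.

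By their brightest probes, the 2 genes that changed at least 2-fold were Cdkn1a and Mdm2, both with LPS. Of all genes, 4.59% were called at this size with LPS alone. No gene of the 10 was called at 2-fold with cordycepin by its brightest probe. Among all genes, 5.55% were called at this size in unstimulated and 7.46% in LPS-stimulated cells. The largest change of a brightest probe with cordycepin was 0.83 (Phlda3 in LPS-stimulated cells), which is under 2-fold whatever its p. The other 2 Cdkn1a probes were called at 2-fold with cordycepin in both settings, as described further on. When LPS was added to cordycepin-treated cells, Cdkn1a, Mdm2 and Fas rose (3 of 10, beside 3.54% of all genes), Cdkn1a and Mdm2 again by at least 2-fold (2 of 10, beside 2.91%). None fell in this comparison (beside 4.61%), and the count of lower genes was again 0 at an unadjusted p under 0.05 and by the methods' t-test. The median change of the 10 genes was 0.27 with LPS, 0.22 with cordycepin and 0.38 with cordycepin in LPS-stimulated cells, where the medians of all genes tested were -0.04, 0.04 and 0.03. The comparisons share groups and are not independent of each other. Scaling to spiked-in control RNA in place of the 75th percentile left the call of Cdkn1a with LPS alone (1.33, adjusted p = 0.0252) and ended all other calls of the 10 genes.

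**Figure D1:**
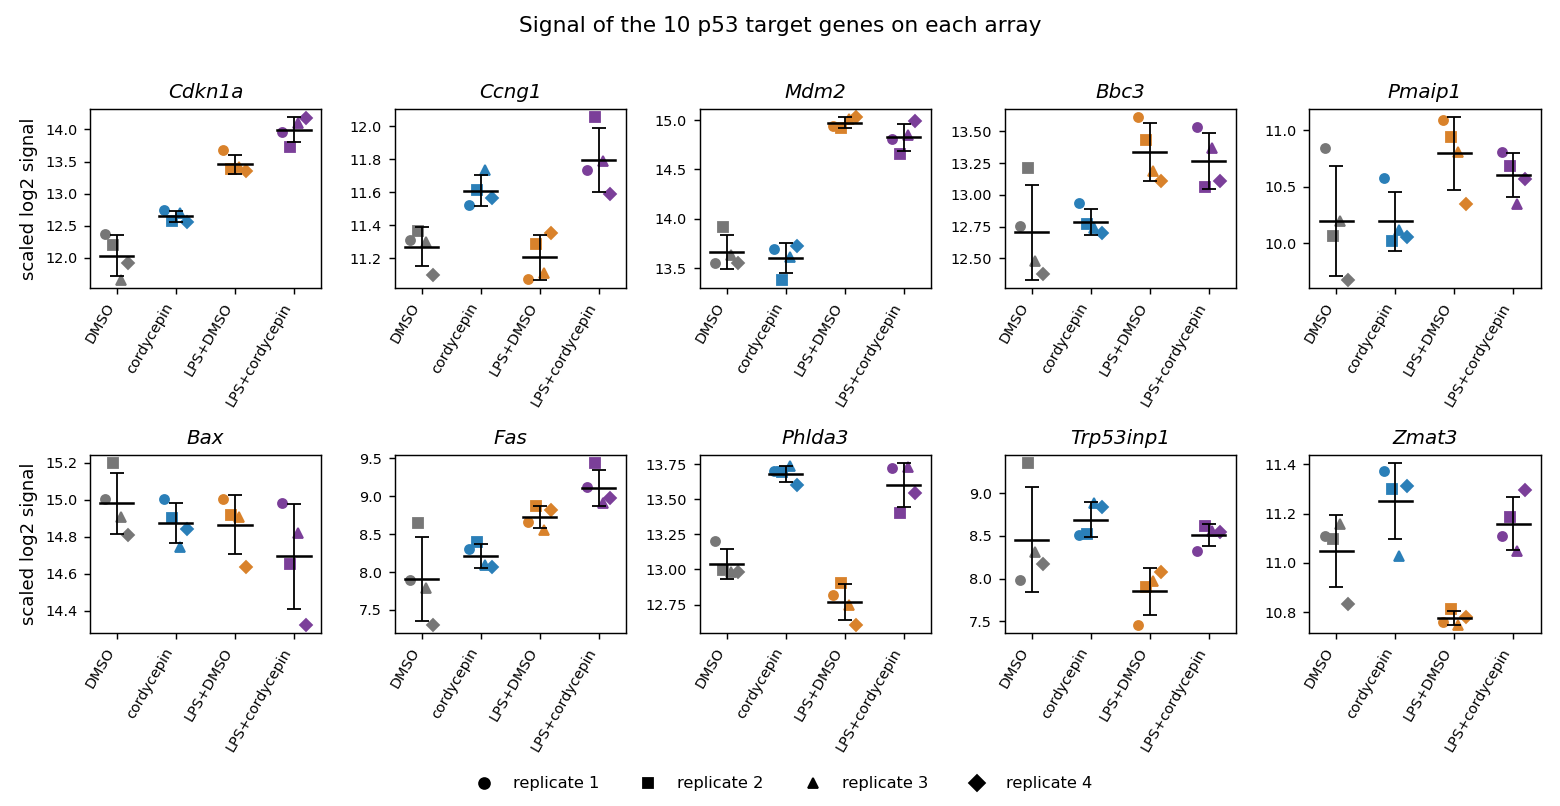
Scaled log2 signal (y axis, own range for each gene) of the brightest probe of each of the 10 p53 target genes in the 4 groups (x axis), with 1 symbol per replicate day, the mean as a long line and the standard deviation as bars (n = 4 arrays per group). Cdkn1a and Mdm2 lay higher on all LPS arrays than on any array without LPS, and Phlda3 lay between 13.40 and 13.74 on the 8 arrays with cordycepin and between 12.60 and 13.20 on the 8 without.

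**Figure D2:**
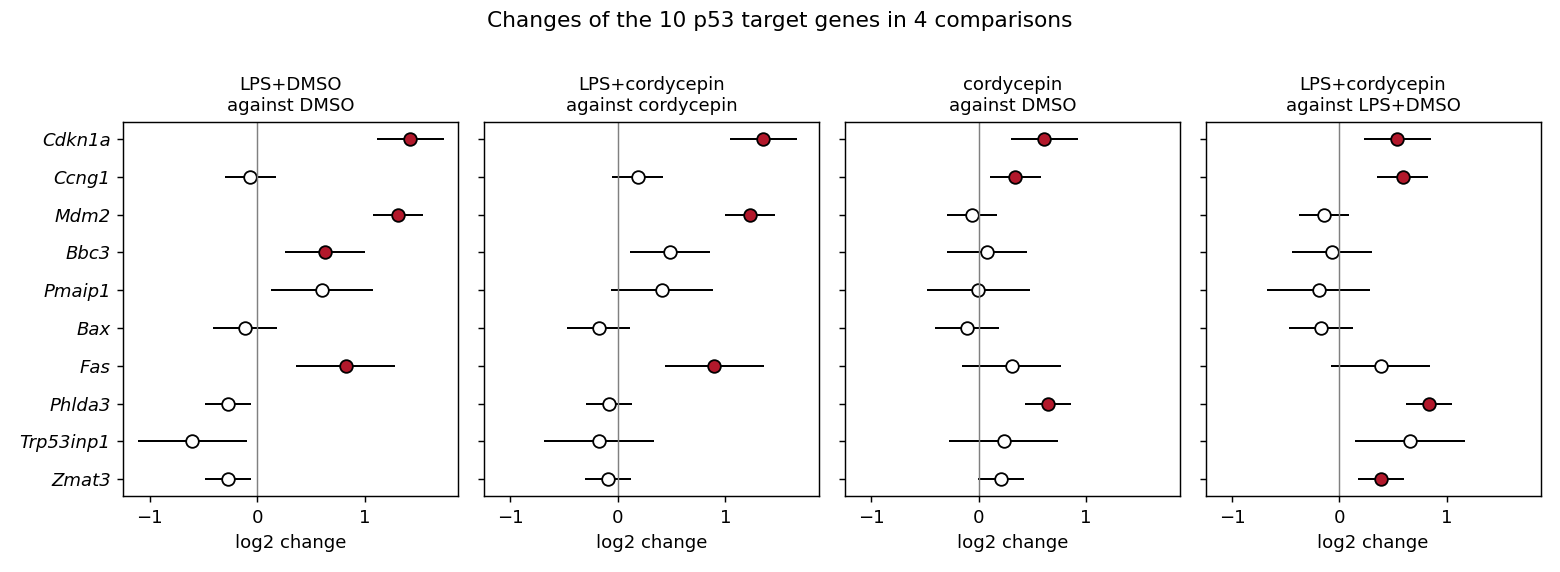
Log2 change (x axis) of each of the 10 genes in 4 comparisons, with the 95% confidence interval of the limma fit as a line and filled circles for an adjusted p under 0.05. Mdm2 rose in both comparisons of LPS and had intervals across 0 in both comparisons of cordycepin, whereas Phlda3 rose in both comparisons of cordycepin and in neither of LPS.

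Cdkn1a encodes p21, the inhibitor of cyclin-dependent kinases through which p53 halts the cell cycle. Its RefSeq transcripts begin at 2 sites, which lie 2790 bases apart in the build GRCm38.p6. The probes of this gene, described further on, responded differently, and whether the 2 starts bear on this was not tested. The sequences around both starts are shown. Each runs from 250 bases before a start over the first 50 bases of the transcript, on the plus strand of chromosome 17, at chr17:29090729-29091028 for the upstream and chr17:29093519-29093818 for the downstream start, and capitals mark matches to the p53 half-site.
Cdkn1a upstream start: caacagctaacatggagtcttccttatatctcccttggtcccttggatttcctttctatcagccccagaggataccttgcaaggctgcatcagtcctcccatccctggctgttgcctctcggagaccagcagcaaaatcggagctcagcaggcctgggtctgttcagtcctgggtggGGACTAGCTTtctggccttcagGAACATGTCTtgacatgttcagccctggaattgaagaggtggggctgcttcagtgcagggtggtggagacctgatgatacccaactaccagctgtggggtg
Cdkn1a downstream start: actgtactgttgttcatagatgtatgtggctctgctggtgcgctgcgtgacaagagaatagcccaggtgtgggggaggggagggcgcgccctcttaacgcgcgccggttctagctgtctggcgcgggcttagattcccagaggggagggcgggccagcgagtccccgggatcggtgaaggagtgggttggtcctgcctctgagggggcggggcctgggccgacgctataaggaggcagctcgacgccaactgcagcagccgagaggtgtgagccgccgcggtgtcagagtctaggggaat

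The p53 half-site is a consensus of 10 letters that p53 binds in pairs. It was searched on both strands, and only exact matches were counted and marked. The upstream Cdkn1a sequence held 2 half-sites, which began 73 and 51 bases before the start and were separated by 12 bases. The bases directly after the second of them, tgacatgttc, depart from the consensus in the first letter only and were not counted. At least 1 half-site was present in 8.36% of the 32851 mouse promoter windows of this length in the RefSeq table, and a pair at most 13 bases apart in 24 of them (0.0731%). The downstream Cdkn1a sequence held no match to it. A match of letters describes the sequence and does not show that p53 bound there.

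The brightest Cdkn1a probe (NM_007669, chr17:29237377-29237436, plus strand, mm9) was printed as 10 spots. With DMSO its log2 signal was 12.37, 12.19, 11.66 and 11.91 in replicates 1 to 4, and with LPS+DMSO it was 13.68, 13.38, 13.41 and 13.36. With cordycepin it was 12.74, 12.57, 12.69 and 12.56, and with LPS+cordycepin it was 13.96, 13.73, 14.11 and 14.18. The ranges of the 4 groups did not overlap, and the order from low to high was DMSO, cordycepin, LPS+DMSO and LPS+cordycepin.

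LPS raised Cdkn1a 2.68-fold in the absence of cordycepin (log2 change 1.42, SE 0.14, adjusted p = 3.88e-06) and 2.55-fold in its presence (1.35, SE 0.14, adjusted p = 1.17e-05). Cordycepin raised it 1.53-fold in unstimulated cells (0.61, SE 0.14, adjusted p = 0.00684) and 1.45-fold in LPS-stimulated cells (0.54, SE 0.14, adjusted p = 0.0134). All 4 changes had the same direction on all 4 days. The LPS response in cordycepin less that without it was -0.07 (95% interval -0.50 to 0.36), so an increase of the combined treatment beyond the sum of both on the log2 scale was not detected. The cordycepin effect was 0.84 on the slide of replicates 3 and 4 and 0.38 on the slide of replicates 1 and 2 in unstimulated cells, and 0.76 and 0.32 in LPS-stimulated cells. It was not called without replicate 3 (0.47, adjusted p = 0.1, and 0.49, adjusted p = 0.0749), nor, in LPS-stimulated cells, without replicate 4 (0.44, adjusted p = 0.137). In LPS-stimulated cells it was also not called with scaling over all probes (0.41, adjusted p = 0.0523, where the median of all genes was -0.09) or with no filter on dim probes (adjusted p = 0.0565), and in unstimulated cells not by the methods' t-test (adjusted p = 0.0685).

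The other 2 Cdkn1a probes, both upstream in the gene, gave another picture. The probe for variant 2 (NM_001111099, chr17:29227986-29228045, mm9) began 9391 bases upstream of the brightest probe. The probe for an Ensembl transcript (ENSMUST00000122348, chr17:29235299-29235358, mm9) began 2078 bases upstream of it. From the downstream start to the end of the gene there are 6954 bases in GRCm38.p6, so the variant 2 probe, if distances are the same in both builds, lies upstream of that start. No genome was at hand to test which transcripts each probe matches.

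The variant 2 probe had log2 signals of 8.06, 7.70, 7.54 and 7.75 with DMSO and of 8.38, 7.97, 7.83 and 7.58 with LPS+DMSO in replicates 1 to 4. Signals were 8.97, 8.87, 8.91 and 8.94 with cordycepin and 9.09, 9.08, 9.29 and 9.20 with LPS+cordycepin. All 8 arrays with cordycepin thus lay above all 8 without it, while the DMSO and LPS+DMSO arrays overlapped. Cordycepin raised this probe 2.23-fold without LPS (1.15, SE 0.14, adjusted p = 2.83e-05) and 2.34-fold with LPS (1.23, SE 0.14, adjusted p = 1.12e-05). The change with LPS was 0.18 (95% interval -0.13 to 0.49, adjusted p = 0.524) without and 0.25 (-0.06 to 0.56, adjusted p = 0.429) with cordycepin, where p was adjusted over all probes.

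The Ensembl transcript probe was dimmer, and 3 of the 4 DMSO arrays and all others were well above background. Its log2 signal was 6.14, 6.40, 5.85 and 6.11 with DMSO, 7.02, 6.74, 6.87 and 6.52 with LPS+DMSO, 7.08, 7.50, 7.89 and 7.65 with cordycepin and 8.50, 9.02, 9.03 and 9.09 with LPS+cordycepin. Cordycepin raised it 2.65-fold without LPS (1.41, SE 0.18, adjusted p = 3.63e-05) and 4.34-fold with LPS (2.12, SE 0.18, adjusted p = 4.29e-07). LPS raised it 1.58-fold without cordycepin (0.66, SE 0.18, adjusted p = 0.0207) and 2.59-fold with cordycepin (1.38, SE 0.18, adjusted p = 0.000108), and the difference of 0.71 between these responses was not past the test (adjusted p = 0.378).

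Whether probes of 1 gene changed unequally was tested on the difference between 2 probes within each array, with limma over the 4083 pairs of a second probe and the brightest probe of its gene. This test was chosen after the Cdkn1a values had been seen. With LPS the variant 2 probe rose less than the brightest probe (difference -1.25, SE 0.11, adjusted p = 1.87e-05 without cordycepin, and -1.104, SE 0.11, adjusted p = 8.99e-05 in its presence), where 4.07% and 1.91% of all pairs were called. With cordycepin it rose more by 0.54 (SE 0.11, adjusted p = 0.00362) without LPS and by 0.69 (SE 0.11, adjusted p = 0.000398) with it, where 12.5% and 14.7% of all pairs were called. The Ensembl transcript probe rose more than the brightest probe with cordycepin, by 0.79 (adjusted p = 0.00875) without LPS and by 1.58 (adjusted p = 1.75e-05) with it, and less with LPS in the absence of cordycepin (difference -0.76, adjusted p = 0.0312). The SE of these 3 values was 0.18. Without replicate 3 or 4 the difference for this probe was not past the test with cordycepin alone (adjusted p = 0.101 and 0.0691), and without replicate 2, 3 or 4 not with LPS alone (0.119, 0.183 and 0.258).

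**Figure D3:**
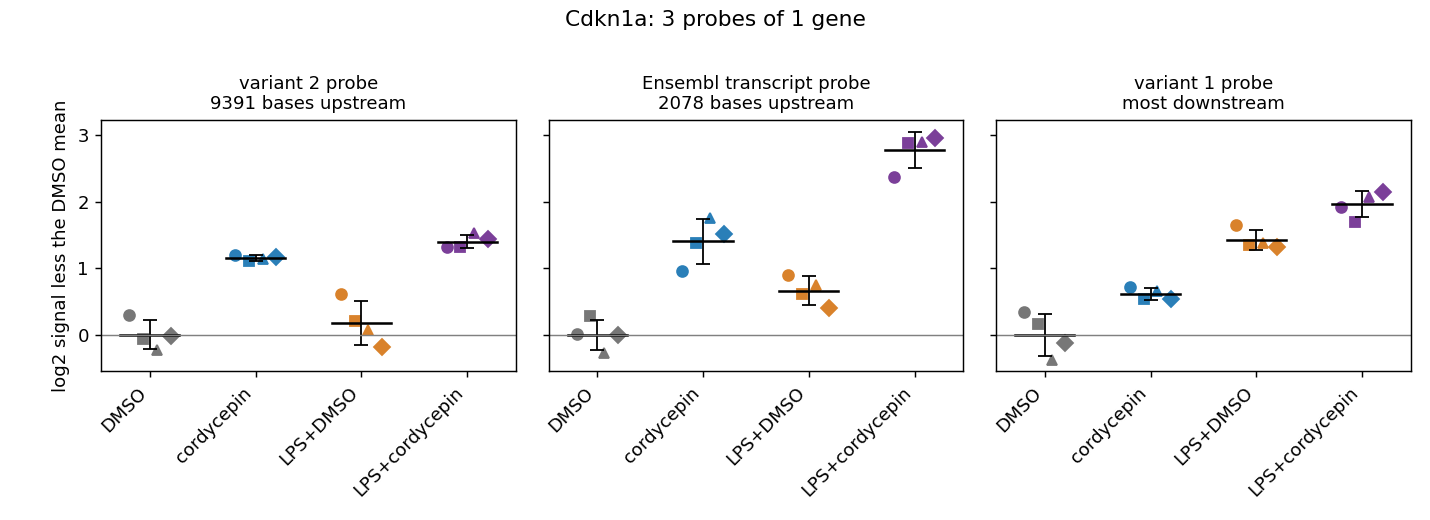
Log2 signal of the 3 Cdkn1a probes less the mean of the DMSO arrays (y axis) in the 4 groups (x axis), with 1 symbol per replicate day, the mean as a long line and the standard deviation as bars (n = 4 arrays per group). From the left panel to the right the probes lie further downstream in the gene, and LPS+DMSO lay 0.18, 0.66 and 1.42 above DMSO.

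Ccng1 encodes cyclin G1, which recruits a phosphatase to Mdm2. Its promoter window held 1 p53 half-site, which began 185 bases before the start and is marked by capitals (GRCm38.p6, chr11:40755237-40755536, minus strand).
Ccng1: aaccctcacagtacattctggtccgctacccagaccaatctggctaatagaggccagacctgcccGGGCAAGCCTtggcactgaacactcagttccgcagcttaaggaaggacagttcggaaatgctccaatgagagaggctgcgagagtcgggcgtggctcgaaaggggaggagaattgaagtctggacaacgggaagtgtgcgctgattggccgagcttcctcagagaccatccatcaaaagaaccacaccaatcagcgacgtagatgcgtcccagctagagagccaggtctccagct

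The Ccng1 probe (NM_009831, chr11:40562427-40562486, minus strand, mm9) had log2 signals of 11.31, 11.37, 11.30 and 11.10 with DMSO and 11.52, 11.62, 11.74 and 11.57 with cordycepin. With LPS+DMSO they were 11.07, 11.28, 11.11 and 11.36, and with LPS+cordycepin 11.74, 12.05, 11.79 and 11.59. Cordycepin arrays lay above their controls without overlap in both settings, while the arrays with and without LPS overlapped. Cordycepin raised Ccng1 1.27-fold without LPS (0.34, SE 0.11, adjusted p = 0.0391) and 1.5-fold with LPS (0.59, SE 0.11, adjusted p = 0.000704). The change with LPS was -0.06 (95% interval -0.29 to 0.16) without and 0.18 (-0.04 to 0.41) with cordycepin. The call in unstimulated cells was the less secure of these, since it was lost without any 1 of DMSO replicates 1, 3 and 4, cordycepin replicates 2, 3 and 4 and LPS+cordycepin replicate 3 (adjusted p = 0.0516 to 0.117, log2 change 0.28 to 0.36). It was also lost with scaling over all probes (0.28, adjusted p = 0.161), with normexp background correction (adjusted p = 0.0667) and with no filter on dim probes (adjusted p = 0.172).

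Mdm2 encodes the ubiquitin ligase that marks p53 for degradation. Its promoter window in the table is shown for the single half-site, which began 186 bases before the start (GRCm38.p6, chr10:117710709-117711008, minus strand). No other part of this gene was searched for motifs.
Mdm2: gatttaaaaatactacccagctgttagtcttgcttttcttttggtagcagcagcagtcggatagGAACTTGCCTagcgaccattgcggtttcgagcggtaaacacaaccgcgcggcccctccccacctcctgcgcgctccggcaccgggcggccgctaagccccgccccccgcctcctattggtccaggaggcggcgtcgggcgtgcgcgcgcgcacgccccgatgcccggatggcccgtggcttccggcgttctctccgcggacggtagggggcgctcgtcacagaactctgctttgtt

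The Mdm2 probe (NM_010786, chr10:117126010-117126069, minus strand, mm9) had log2 signals of 13.55, 13.92, 13.64 and 13.55 with DMSO and 14.94, 14.92, 15.01 and 15.03 with LPS+DMSO. They were 13.70, 13.38, 13.61 and 13.72 with cordycepin and 14.81, 14.66, 14.85 and 14.99 with LPS+cordycepin. The 8 LPS arrays lay above the 8 others without overlap, and cordycepin arrays overlapped their controls in both settings. LPS raised Mdm2 2.48-fold without cordycepin (1.31, SE 0.10, adjusted p = 3.22e-07) and 2.34-fold with it (1.22, SE 0.10, adjusted p = 1.22e-06), on all 4 days. The change with cordycepin was -0.06 (95% interval -0.28 to 0.16) in unstimulated and -0.15 (-0.37 to 0.08) in LPS-stimulated cells, and all but 1 of the alternatives tried left both LPS calls in place. The exception was scaling to spiked-in controls (1.21 and 0.91, adjusted p = 0.0656 and 0.335).

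Bbc3 (PUMA) and Pmaip1 (NOXA) encode BH3-only proteins that start mitochondrial apoptosis, and Bax encodes the pore-forming protein downstream of them. Log2 signals of Bbc3 (NM_133234, chr7:16903403-16903462, plus strand, mm9) were 12.75, 13.22, 12.48 and 12.38 with DMSO and 13.61, 13.43, 13.19 and 13.11 with LPS+DMSO, so that DMSO replicate 2 reached into the LPS range. With cordycepin they were 12.94, 12.77, 12.74 and 12.70, and with LPS+cordycepin 13.54, 13.07, 13.37 and 13.11, without overlap. LPS raised Bbc3 1.55-fold in the absence of cordycepin (0.63, SE 0.17, adjusted p = 0.0191), and in its presence the change was 0.48 (SE 0.17, adjusted p = 0.11). The first call was lost without DMSO replicate 3 or 4 or LPS+DMSO replicate 1 or 2 (0.52 to 0.60, adjusted p = 0.0537 to 0.068), while the second change was past the test without DMSO replicate 2, which enters it only through the estimate of the spread (adjusted p = 0.0339), or with the slide as a block (0.0366) or in a fit of its own 2 groups (0.0455). The first call was lost as well with no filter on dim probes (adjusted p = 0.0815), in the fit of the DMSO and LPS+DMSO arrays alone (0.074) and by the methods' t-test (0.152). Within the slides the LPS change without cordycepin was 0.72 and 0.54. Cordycepin changed Bbc3 by 0.08 (95% interval -0.28 to 0.44) without and -0.07 (-0.43 to 0.29) with LPS.

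Pmaip1 (NM_021451) had log2 signals of 10.85, 10.07, 10.20 and 9.68 with DMSO and 11.09, 10.94, 10.81 and 10.35 with LPS+DMSO. Day by day all 4 LPS arrays were higher than their DMSO partner, but the groups overlapped, with DMSO replicate 1 above 2 of the LPS arrays. The change was 0.60 (SE 0.22, adjusted p = 0.0836), and with the replicate block, which compares arrays of the same day, it was past the test (0.60, adjusted p = 0.0103). It was past the test as well with the slide as a block (adjusted p = 0.0295), without DMSO replicate 1 (0.82, adjusted p = 0.00903) and without LPS+DMSO replicate 4 (0.75, adjusted p = 0.0379). With cordycepin present the LPS change was 0.41 (95% interval -0.06 to 0.88), and cordycepin changed Pmaip1 by -0.00 (-0.47 to 0.46) and -0.19 (-0.66 to 0.27). Bax (NM_007527, chr7:52717122-52717181, minus strand, mm9) ranged from 14.32 to 15.20 over all 16 arrays. Its changes in the 4 comparisons were -0.11, -0.11, -0.17 and -0.18 with an SE of 0.13, none past the test, and the intervals lay between -0.47 and 0.18.

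The promoter windows of this group differed in the motifs they held. The Bax window held 1 p53 half-site, 201 bases before the start, and 3 Bbc3 windows held none. The most upstream Bbc3 window held 2 overlapping matches to the NF-kB consensus, 137 and 136 bases before the start, in both cases a consensus present in 4.51% of all windows. The window of Fas, a gene of the next group, held 1 match to the AP-1 motif TGANTCA, present in 7.81% of windows, 211 bases before the start. The windows of Cdkn1a and Mdm2, the genes with the largest changes with LPS, held 0 matches to either motif. NF-kB and AP-1 are factors that LPS activates in macrophages, and binding was not measured. Whether these matches bear on the changes was not tested. No window of these genes held TATAAA, which 13.6% of windows hold. Windows were found for 7 of the 10 genes (10 windows in all). Of these 10 windows 4 held a p53 half-site, beside 8.36% of all windows, and the windows of Fas and Phlda3 held 0.

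Fas encodes the death receptor CD95. Its probe (NM_007987, chr19:34402164-34402223, plus strand, mm9, 2 spots) had log2 signals of 7.89, 8.64, 7.78 and 7.30 with DMSO and 8.65, 8.87, 8.56 and 8.82 with LPS+DMSO. They were 8.30, 8.40, 8.09 and 8.06 with cordycepin and 9.12, 9.44, 8.91 and 8.97 with LPS+cordycepin. DMSO replicate 2 lay within the LPS range, and with cordycepin the LPS arrays were all above the others. LPS raised Fas 1.77-fold without cordycepin (0.82, SE 0.21, adjusted p = 0.0147) and 1.86-fold with it (0.90, SE 0.21, adjusted p = 0.014). No single array decided either call, although both were lost without replicate 1 or 3 as whole days (0.84 to 0.92, adjusted p = 0.0914 to 0.105). Without replicate 4 the first was lost as well (0.59, adjusted p = 0.132). Both were lost with normexp background correction (0.61 and 0.77, adjusted p = 0.0904 and 0.0548) and with no filter on dim probes (adjusted p = 0.0609 and 0.0621), and the first in a fit of its own 2 groups (0.0661) and by the methods' t-test (0.153). The LPS change without cordycepin was 1.15 on the slide of replicates 3 and 4 and 0.50 on the other. Cordycepin changed Fas by 0.31 (95% interval -0.14 to 0.76) in unstimulated and 0.38 (-0.07 to 0.83) in LPS-stimulated cells, neither past the test, and the first became 0.55 (adjusted p = 0.0264) without DMSO replicate 2.

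Phlda3 encodes a repressor of Akt signalling, Zmat3 an RNA-binding zinc finger protein, and Trp53inp1 a nuclear protein that takes part in p53-dependent apoptosis. Phlda3 (NM_013750, chr1:137665642-137665701, plus strand, mm9) had log2 signals of 13.20, 12.999, 12.98 and 12.98 with DMSO and 13.70, 13.69, 13.74 and 13.60 with cordycepin. With LPS+DMSO they were 12.82, 12.90, 12.75 and 12.60, and with LPS+cordycepin 13.73, 13.40, 13.73 and 13.55. All 8 arrays with cordycepin lay above all 8 without it. Cordycepin raised Phlda3 1.56-fold without LPS (0.64, SE 0.10, adjusted p = 0.000154) and 1.78-fold with LPS (0.83, SE 0.10, adjusted p = 8.59e-06), the firmest cordycepin calls among the 10 brightest probes by adjusted p.

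Without cordycepin, all 4 LPS arrays of Phlda3 lay below all DMSO arrays, and the change of -0.27 (SE 0.10, adjusted p = 0.0699) was not past the test. It was past it (-0.27, adjusted p = 0.0478) without LPS+cordycepin replicate 2, an array that enters this comparison only through the estimate of the spread. With cordycepin the LPS change was -0.08 (95% interval -0.28 to 0.12).

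Zmat3 (NM_009517, chr3:32233831-32233890, minus strand, mm9) showed the same order of group means, with smaller changes with cordycepin. Log2 signals were 11.11, 11.10, 11.16 and 10.83 with DMSO, 10.76, 10.81, 10.75 and 10.78 with LPS+DMSO, 11.37, 11.30, 11.03 and 11.31 with cordycepin and 11.11, 11.19, 11.05 and 11.30 with LPS+cordycepin. The LPS+DMSO arrays lay below those of all other groups. Cordycepin raised Zmat3 1.31-fold in LPS-stimulated cells (0.38, SE 0.10, adjusted p = 0.00879), and in unstimulated cells the change was 0.20 (SE 0.10, adjusted p = 0.179). The call was lost without replicate 1 as a whole day (0.40, adjusted p = 0.0581) and with scaling over all probes (0.26, adjusted p = 0.147) and with no filter on dim probes (adjusted p = 0.0545). The change with LPS alone was -0.27 (SE 0.10, adjusted p = 0.0699), and it was past the test without DMSO replicate 4 (-0.35, adjusted p = 0.0245) or cordycepin replicate 3 (-0.27, adjusted p = 0.0485).

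The brighter Trp53inp1 probe (NM_021897, chr4:11101174-11101233, plus strand, mm9) had log2 signals of 7.98, 9.36, 8.32 and 8.17 with DMSO, where replicate 2 stood above the others. They were 7.45, 7.91, 7.97 and 8.08 with LPS+DMSO, 8.50, 8.52, 8.89 and 8.84 with cordycepin and 8.32, 8.62, 8.56 and 8.54 with LPS+cordycepin. In LPS-stimulated cells the cordycepin arrays lay above the others without overlap, by 0.66 (SE 0.23, adjusted p = 0.0661), and this was past the test with the replicate block (0.66, adjusted p = 0.037), in a fit of its own 2 groups (0.013), by the methods' t-test (0.0352) and without DMSO replicate 2, which is in neither group (0.66, adjusted p = 0.00294). In unstimulated cells the cordycepin change was 0.23 (SE 0.23, adjusted p = 0.592), and without DMSO replicate 2 it was 0.53 and past the test (adjusted p = 0.0262). The change with LPS alone was -0.60 (SE 0.23, adjusted p = 0.106), and -0.76 (adjusted p = 0.0441) without DMSO replicate 1. The second probe of this gene was well above background on 1 to 3 arrays of a group and was not tested.

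By their brightest probes, none of the 10 genes passed the test of a different LPS response with cordycepin (0 of 10 by limma, beside 0.554% of all genes). At an unadjusted p under 0.05 by limma the count was also 0, beside 7.65% of all genes. The Ensembl transcript probe of Cdkn1a had an unadjusted limma p of 0.0139 for this difference (0.71, 95% interval 0.17 to 1.26, positive on all 4 days, adjusted p = 0.378). The intervals were wide for some genes. Over the brightest probes the difference ranged from -0.19 (95% interval -0.85 to 0.47) for Pmaip1 to 0.43 (-0.28 to 1.13) for Trp53inp1. Tnf fell short by 1.55 on the log2 scale (SE 0.16, adjusted p = 0.00037) in the same test.

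Over the 16 arrays the 2 genes with the signal most like that of Cdkn1a were Gm8801 (Pearson's r = 0.985) and Tmem88 (r = 0.976). Those most like Mdm2 were Cxcl10 (r = 0.987), a chemokine, and Maff (r = 0.986), a small Maf transcription factor. These correlations describe 4 groups of arrays and carry no test. Mean log2 signals of Tmem88 were 3.67 with DMSO, where no array was well above background, 5.82 with cordycepin, 8.71 with LPS+DMSO and 11.4 with LPS+cordycepin, the order seen for Cdkn1a. Mean log2 signals of Cxcl10 were 9.86 and 9.66 without LPS and 17.4 and 16.4 with LPS, in DMSO and cordycepin respectively.

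The mRNA of p53 itself, Trp53, did not pass the test in any comparison. Its changes were 0.12, 0.11, 0.10 and 0.11 with an SE of 0.31, which leaves intervals from -0.55 to 0.77. Mdm4, the relative of Mdm2 that blocks p53 as a transcription factor, changed by -0.30 with LPS, -0.26 with cordycepin and -0.19 with cordycepin in LPS-stimulated cells (SE 0.23), none past the test.

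Beyond these, a list held 31 regulators and partners of p53, of which 27 were tested. With LPS 0 rose and 1 fell, where 5.14% and 9.80% of all genes rose and fell. The 1 that fell was Ppm1d (-0.58, SE 0.09, adjusted p = 0.000392), a phosphatase that inactivates p53. At an unadjusted p under 0.05 by limma 0 were higher and 2 lower with LPS, beside 8.64% and 17.7% of all genes. With cordycepin 5 fell and 0 rose, and they were Rchy1, Kat5, Trp53bp2, Ppp1r13b and Sirt1 both without and with LPS, where 7.55% and 8.47% of all genes fell. At an unadjusted p under 0.05, 8 and 7 of the 27 were lower, beside 12.8% and 12.7% of all genes, and 1 was higher in each, beside 15.1% and 15.4%. Sirt1, a deacetylase of p53, fell by 0.93 (SE 0.15, adjusted p = 0.000433) in unstimulated and by 0.59 (SE 0.15, adjusted p = 0.012) in LPS-stimulated cells. Kat5, an acetyltransferase, fell by 0.44 (SE 0.10, adjusted p = 0.00524) and by 0.46 (SE 0.10, adjusted p = 0.0032), and the other 3 fell by 0.33 to 0.52. These regulators are named because the counts are small, and they were picked after their values were seen. With LPS in cordycepin-treated cells none of the 27 was past the test, and 2 were higher and 1 lower at an unadjusted p under 0.05.

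Of 38 other p53 targets, 33 were tested. With LPS 8 rose and 3 fell without cordycepin, and 9 rose and 1 fell with cordycepin. Among those that rose at least 2-fold in both cases were genes that also respond to many growth and stress signals. Btg2, an antiproliferative gene, rose by 3.66 and 3.09 (SE 0.14), and Gdf15, a stress cytokine, by 3.12 and 2.83 (SE 0.30). The polo-like kinases Plk2 and Plk3 rose by 3.08 and 2.48 (SE 0.22) and by 2.39 and 2.28 (SE 0.13). The adjusted p of these 8 values lay between 1.05e-10 and 1.2e-05.

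With cordycepin 3 of the 33 rose and 3 fell in unstimulated cells, and 7 rose and 6 fell in LPS-stimulated cells. In LPS-stimulated cells Tnfrsf10b, the mouse receptor for TRAIL, rose by 1.14 (SE 0.08, adjusted p = 8.1e-08) and Sfn, a 14-3-3 protein, by 1.08 (SE 0.34, adjusted p = 0.037), while Plk2 fell by 1.25 (SE 0.22, adjusted p = 0.000472). Btg2 and Plk3 fell as well, by 0.86 and 0.91. Tnfrsf10b was raised by each treatment, by 0.73 with LPS and 0.81 with cordycepin (SE 0.08), and its mean log2 signal went from 8.49 with DMSO to 10.4 with LPS+cordycepin. The median change of the 33 genes was 0.00 with LPS, 0.03 with cordycepin and 0.09 with cordycepin in LPS-stimulated cells. None of either list was past the test of a different LPS response with cordycepin, with 1 of the 27 and 6 of the 33 at an unadjusted p under 0.05 by limma, beside 7.65% of all genes. Both lists are read against the same shares of all genes as the 10 targets.

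**Figure D4:**
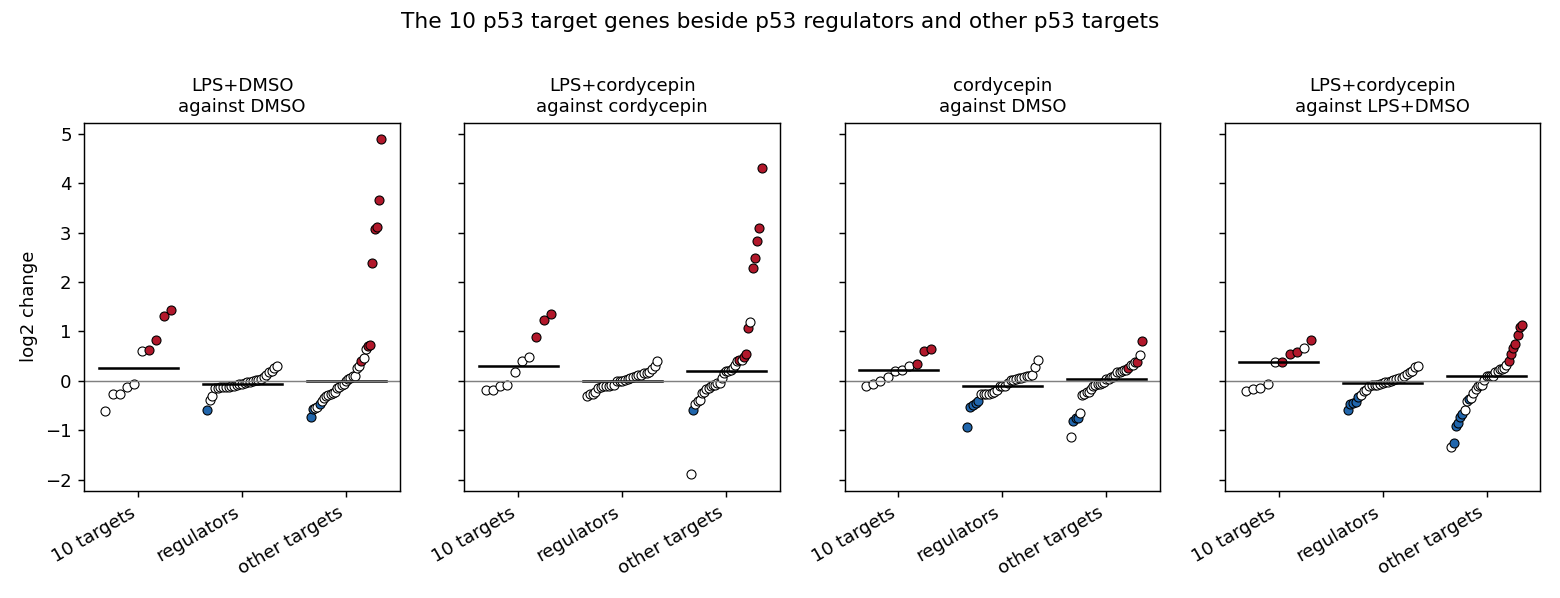
Log2 change (y axis) of the 10 p53 target genes, 27 p53 regulators and 33 other p53 targets in 4 comparisons, with a circle for each gene, filled red where it rose and blue where it fell at an adjusted p under 0.05, and a line at the median of each list. The largest changes were those of other targets with LPS, among them Btg2 at 3.66, and regulators were called only as lower.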

How the data were processed

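Gene expression was measured on 16 Agilent 1-colour mouse arrays, 1 per culture, in 4 groups of 4 replicates assigned from the labels. The scanner files deposited by the authors give spot intensity from Agilent Feature Extraction 10.10.1.1 (submitters' processing notes), with background and spatial trend removed but no normalization between arrays. A table of log2 values was also deposited, normalized by the authors by a method not given in the sources used here, and served as an alternative. Its columns had medians of 9.55 to 9.58, so it was not centred by gene, and its background correction is not known. The number of arrays limits the precision.

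Outlier spots were left out, spots of a probe averaged, and log2 intensities scaled to each array's 75th percentile over the 18063 probes that no array had as dim. A probe was kept if some group had all 4 arrays well above background (21597 probes), and each gene was read from its brightest probe. Group means were fitted with limma 3.58.1 in R 4.3.3, and p was adjusted by Benjamini and Hochberg over 15877 genes. The functions were tested on simulated data. Residuals of arrays of the same replicate number, which share a collection day, correlated by 0.20 on average (20 of 24 pairs over 0.1). Pairs with different numbers correlated by 0.18 within a slide and by -0.19 across slides. Residuals were taken from group means, so positive and negative correlations nearly cancel by construction, and the negative value follows in part from this. The pairing comes from the series' design text, and the replicate number as a block was an alternative.

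Probe positions are those of the array files (mm9), and exon annotation of that build was not used here. Sequences are from RefSeq (GRCm38.p6). The 10 genes, the wider lists, the comparisons and the alternatives were chosen with earlier results of these data known. Named are all 10 genes with every probe, Trp53 and Mdm4, genes of the wider lists past the test and changed at least 2-fold (at most 8 per list and comparison), the 2 genes most correlated with each member called at 2-fold, and Tnf and Gapdh, with exceptions stated. Of the wider lists, 1 gene that this rule names is counted but not reported here.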

Additional observations from a re-analysis of the deposited data

Results flagged for a closer look

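In the DMSO group, replicate 1 of Phlda3 had a log2 signal of 13.20, above the other 3 replicates, of which 2 had 12.98. It was the only such array among the 40 groups of 4 arrays examined for the 10 genes, where chance alone sets 1 array apart in about 1 of 20 groups. No cordycepin call of Phlda3 was lost without it.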

How the results depend on the processing

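Scaling to spiked-in controls ended most calls. Of the 10 genes it left 1 past the test with LPS (Cdkn1a, also the only one at 2-fold) and 0 with cordycepin, with cordycepin in LPS-stimulated cells and with LPS in cordycepin-treated cells (0 at 2-fold). The wider lists kept 5, 0, 1 and 6 genes, against 12, 11, 18 and 10. Of all 15877 genes, 519, 704, 943 and 391 were past the test, against 2372, 2505, 3051 and 1294. The SE of Cdkn1a rose from 0.14 to 0.38. Relative to a median of 0.03 over all genes with cordycepin in LPS-stimulated cells, the median was -0.12 with spiked-in and -0.09 with all-probe scaling. Among all genes, 1707 were higher and 1344 lower in that comparison, against 1391 and 2017 with all-probe scaling, 1479 and 1760 with quantile normalization, 1283 and 1580 in the authors' values and 690 and 253 with spiked-in scaling. With LPS, 816 were higher and 1556 lower, against 996 and 1156 with all-probe scaling.

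With LPS, 2 of the 10 genes were past the test with no filter on dim probes and in a fit of its own 2 groups. The count was also 2 by the methods' t-test, at an adjusted p under 0.01 and on the slide of replicates 1 and 2 alone. Of all genes, 2372 of 15877 were past it in the main fit and 1539 of 34779 with no filter. The fit of 2 groups had 1878 and the t-test 1531. All genes were not counted at an adjusted p under 0.01. On the slide of replicates 1 and 2 alone 0 of the 10 were past the test with cordycepin and 2 with cordycepin in LPS-stimulated cells. The wider lists had 7, 5, 8 and 6 genes there, and all genes 743, 953, 1320 and 367. On the other slide the wider lists had 4 with cordycepin, beside 1808 of all genes. With cordycepin in LPS-stimulated cells 2 of the 10 were past the test when scaled over all probes and with no filter. Of all genes, 3408 of 15877 and 2480 of 34779 were past it. The mean of a gene's probes gave 1 gene at 2-fold in each of the 4 comparisons. It was Mdm2 in both comparisons of LPS and Cdkn1a in both of cordycepin. With no filter the wider lists had 6 genes past the test with cordycepin, beside 1836 of 34779, and 9 in LPS-stimulated cells, beside 2480. At an adjusted p under 0.01 they had 7 and 8. With the slide as a block 1 gene of the wider lists was past the test of the interaction, beside 244 of 15877.

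Leaving out replicates gave 2 to 6 genes past the test with LPS (2 to 3 at 2-fold), 1 to 5 with cordycepin, 3 to 5 with cordycepin in LPS-stimulated cells and 2 to 4 with LPS in cordycepin-treated cells. Of all 15877 genes, 1383 to 2496, 1530 to 2698, 1987 to 3470 and 664 to 1602 were past it. The wider lists gave 11 to 15, 5 to 13, 10 to 20 and 8 to 12. With cordycepin in LPS-stimulated cells it was 10 without replicate 1 or 3 and 11 without LPS+DMSO or LPS+cordycepin replicate 3, and with cordycepin 6, 7 and 5 without replicate 1, 2 or 3.

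No called change of the 10 genes reversed its direction under any alternative. The replicate block added the calls of Pmaip1 with LPS (0.60, adjusted p = 0.0103) and Trp53inp1 with cordycepin in LPS-stimulated cells (0.66, adjusted p = 0.037), and changed no other call of the 10 genes. For single genes, 961 of the values with replicates left out stayed on their side of the test, 26 lost and 13 gained a call, and under other settings 775 stayed, 46 lost and 9 gained one. The 7 unequal changes of Cdkn1a probes stayed past the test in 44 of 49 refits, added after seeing the data. The t-test and the fit of only 2 groups could not be run for the interaction. Except where noted, the cause of these shifts was not tested. Arrays in the DMSO group spread more than others for Bbc3, Fas and Trp53inp1 (SD 0.37, 0.56 and 0.62), which limits what can be seen there.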
